A study of Homo sapiens with 84 samples.

Results

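Kyse30 is an established human line of esophageal squamous cell carcinoma, and the libraries described here follow it through culture without growth factor from 6 to 72 h. They were chosen by their sample labels as the untreated Kyse30 controls, 3 libraries at 72 h and 3 at 6 h, 6 of the 84 libraries of the series. Cells had been plated in medium with fetal calf serum and kept without serum for a day before the clock started at 0 h, and every group stayed serum-free afterwards, so no serum-fed control enters the comparison. Alongside stood 3 untreated libraries at 0 h, 3 libraries at 6 h and 3 at 72 h from cells given recombinant immunoglobulin Fc, and 4 libraries at 6 h and 3 at 72 h from cells given 9 nM EGF (EGF high). Gene expression was measured by 3′ RNA-seq, in which only the end of each transcript is read, so that a count does not depend on transcript length. The untreated controls are 1 line in culture, and the labels do not say whether replicates came from separate cultures. The p-values therefore measure the spread between libraries. That spread was estimated over all 43 Kyse30 libraries in 1 fit and not from these 6 alone.

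Total counts on genes ranged from 4831395 to 10478501 in the 6 libraries, and 3 counts, taken as the smallest readable amount, were worth 0.279 to 0.613 CPM (counts scaled to the normalized library total). These limits cover counting error only. The second 72 h replicate stood apart in its reads outside genes, at 15.3% of reads against 6.2 to 8.28% in the other 5, with 13.9% in the Fc library of the same time and number. The number of DEGs in a list without it is given beside each list whose count it changed. Spearman correlations across genes were 0.947 to 0.964 within a time point and 0.922 to 0.953 between time points. Of 15 squamous markers 14 could be tested and none was a DEG, their summed level was 2519 to 3083 CPM at 6 h and 2285 to 2954 CPM at 72 h, and KRT14, a keratin of basal squamous cells, was near 0 with means of 1.10 and 1.19 CPM. Markers of other cell types were low at both times, with sums of 14.4 to 44.8 and 15.4 to 19.8 CPM over 9 fibroblast genes, 1.74 to 2.76 and 0.204 to 1.91 CPM over 9 leukocyte genes, and 2.64 to 4.52 and 1.64 to 4.09 CPM over 6 endothelial genes. LUM, CD3E, CD3D, MS4A1 and PECAM1 had no count in any of the 6 libraries.

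Cells deprived of serum lose the growth factors that drive them through the cell cycle, and many cultures then slow their divisions, lower their biosynthesis and raise receptors and signalling genes that growth factors keep low. Epithelial cells can also express interferon-stimulated genes, an antiviral programme that is switched on by interferons through STAT transcription factors, and with it the MHC class I genes that show peptides to T cells. The comparison of untreated cells at 72 h with 6 h asks how far the control itself moves over the interval in which treated cells were followed.

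Of 15350 genes tested, 238 were differentially expressed genes (DEGs) at 72 h against 6 h, which is 1.55% of the genes tested. A DEG had an adjusted p of at most 0.05 in edgeR's quasi-likelihood test and a log2 fold change (log2FC) beyond 0.5 in either direction. The split was even, with 119 genes higher (0.775%) and 119 lower (0.775%). The rises were larger than the falls. The median log2FC of the genes that rose was 1.61, the median fall was 1.07 on the log2 scale, and 38 genes rose but 7 fell by at least 4-fold. The libraries of both time points did not overlap in CPM for any of the 238 DEGs, which was true of 20.7% of all genes tested. Protein-coding genes made up 97.1% of the DEGs and 80.8% of the genes tested. An unadjusted p under 0.05 in edgeR was reached by 2025 genes, or 13.2% of those tested. Leaving out any one of the 6 libraries lowered the number of DEGs by more than 1.5 times, to 123, 72 and 155 without the 6 h replicates 1, 3 and 4, and to 104, 101 and 108 without the 72 h replicates 1, 2 and 3.

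**Figure D1:**
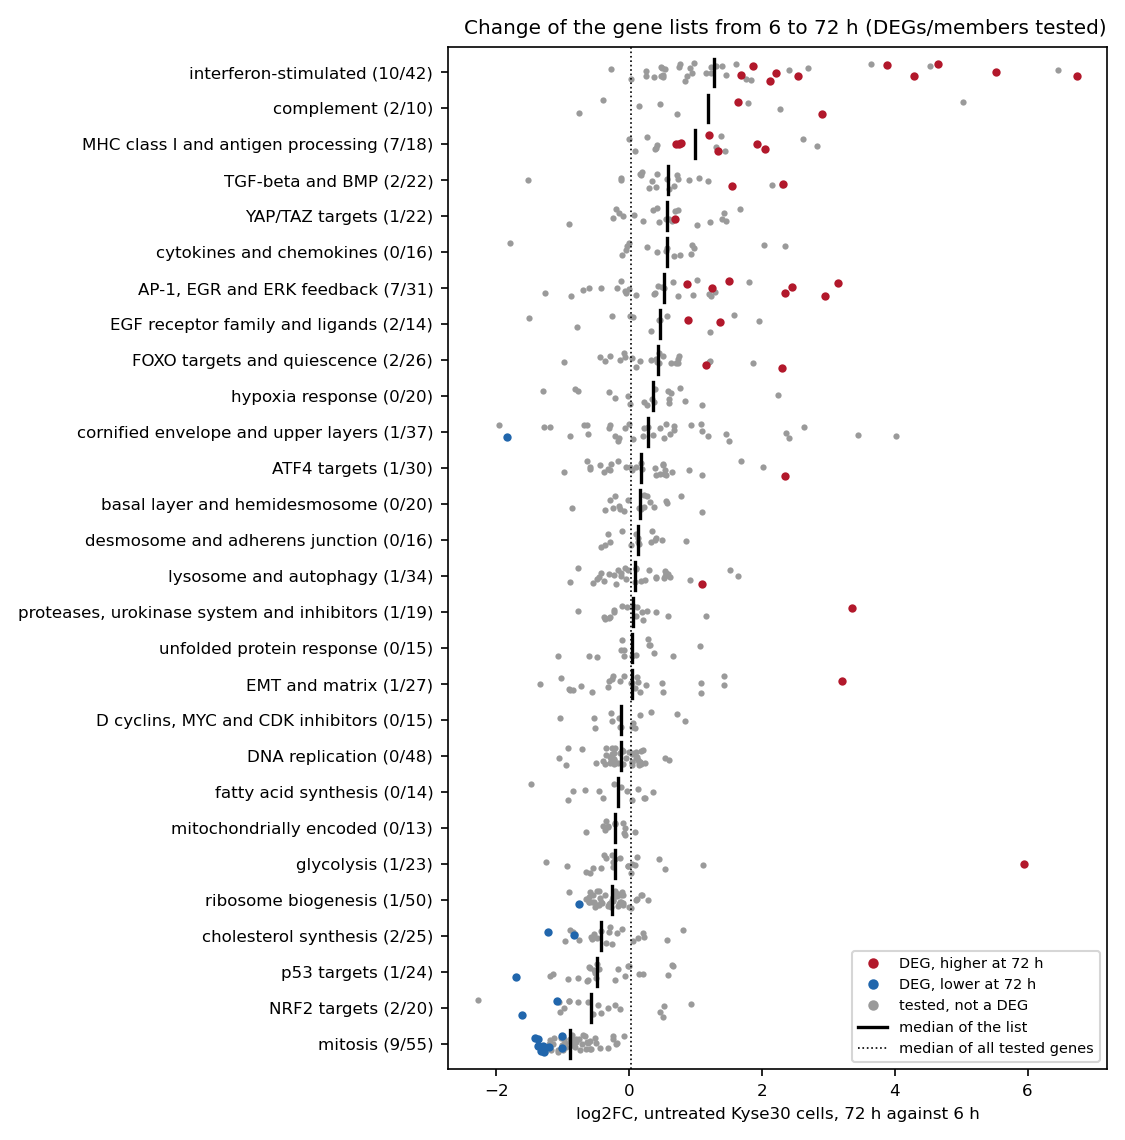
Log2FC of untreated Kyse30 cells at 72 h against 6 h for the tested members of each gene list with at least 10 of them, 1 point per gene, with red and blue points for DEGs, a bar for the list's median and a dotted line for the median of all genes tested. The interferon-stimulated list lay farthest to the right with 10 DEGs of 42, and the mitosis list farthest to the left with 9 of 55.

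Interferon-stimulated genes had the highest median change of the 31 lists examined. Of 42 tested members of a list of 46, 10 were DEGs, all higher at 72 h (23.8%), and 41 of 42 had a positive log2FC. The list's median log2FC was 1.27, against 0.02 over all genes tested. The 10 were IFI27, IFI44L, IFI6, BST2, OAS2, IFITM3, OAS1, LGALS3BP, OAS3 and ISG15, which cover antiviral effectors, sensors of foreign RNA and a ubiquitin-like modifier.

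IFI6, an interferon-induced mitochondrial protein (GRCh38, chr1:27666061-27672218), stood at 11.1, 11.6 and 2.67 CPM at 6 h and at 229, 222 and 187 CPM at 72 h. Every 72 h library was above every 6 h library by more than 10-fold. The log2FC was 4.65 ± 0.79 (SE, adjusted p = 0.000705). OAS2, which makes the second messenger that activates an RNA-degrading enzyme, was at 2.78, 1.56 and 0.561 CPM at 6 h and 28.3, 32.8 and 10.2 CPM at 72 h (log2FC 3.88 ± 1.00, adjusted p = 0.0309). BST2, a tether that holds budding viruses at the membrane, rose from 4.69, 0.959 and 0.421 CPM to 47.4, 46.9 and 19.2 CPM (log2FC 4.28 ± 1.13, adjusted p = 0.0356). In both genes the third 72 h replicate was the lowest of its time point. IFI44L moved from 1.04, 0 and 0.281 CPM to 22.1, 22.3 and 12.7 CPM (log2FC 5.52 ± 1.40, adjusted p = 0.0287), so that its 6 h levels lay near the smallest readable amount. IFI27, another small interferon-induced membrane protein, had 2 counts in all 3 libraries at 6 h and 288 at 72 h, a ratio of 146 with a 95% counting interval of 40.2 to 1214 and an adjusted p of 0.0135.

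The promoters of these genes are shown because they carry the letters that interferon-activated factors are known to read. The interferon-stimulated response element was searched, on both strands, as GAAA followed by any 2 bases and GAAA again, in the 250 bases before the start of each gene in RefSeq (GRCh38.p14, first entry of a gene). It was present in 8 of the 9 interferon-stimulated DEGs with an entry, in 20 of 33 tested members of the list, and in 2.18% of 10819 tested genes with an entry. The last 150 bases before the start are printed below with matches in capitals, of which overlapping ones run together.
IFI27: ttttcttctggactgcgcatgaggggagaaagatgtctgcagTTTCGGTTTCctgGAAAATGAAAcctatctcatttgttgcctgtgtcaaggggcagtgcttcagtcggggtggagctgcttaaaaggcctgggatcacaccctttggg
IFI6: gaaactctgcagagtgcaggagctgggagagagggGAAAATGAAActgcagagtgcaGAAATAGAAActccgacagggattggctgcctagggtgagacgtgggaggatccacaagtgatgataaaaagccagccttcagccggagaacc
IFI44L: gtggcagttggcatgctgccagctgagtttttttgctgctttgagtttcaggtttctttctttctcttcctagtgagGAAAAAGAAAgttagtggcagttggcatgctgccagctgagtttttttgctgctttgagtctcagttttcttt
BST2: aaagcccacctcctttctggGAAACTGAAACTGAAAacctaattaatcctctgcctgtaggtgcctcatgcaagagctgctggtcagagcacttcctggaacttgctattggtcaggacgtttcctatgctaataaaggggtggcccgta
These stretches are chr14:94110586-94110735 (plus strand), chr1:27672193-27672342 (minus strand), chr1:78620298-78620447 (plus strand) and chr19:17405631-17405780 (minus strand). A match describes these letters and is not evidence of binding. IFI6 and IFI44L each had a further match farther upstream, and OAS2 had no entry.

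MHC class I genes rose with them. Of 18 tested members of a list of 20 genes for MHC class I and antigen processing, 7 were DEGs, all higher (38.9%), and the list's median log2FC was 1.00. Among them HLA-B, HLA-C and HLA-E are class I heavy chains, B2M is their shared light chain, TAPBP helps load peptides and PSME1 is a proteasome activator. HLA-B stood at 146, 66.3 and 68.7 CPM at 6 h and at 456, 290 and 322 CPM at 72 h, with no overlap (log2FC 1.93 ± 0.39, adjusted p = 0.00479). B2M (chr15:44711487-44718877) was at 352, 218 and 251 CPM at 6 h and at 832, 532 and 528 CPM at 72 h (log2FC 1.21 ± 0.28, adjusted p = 0.0156), and the first 72 h replicate was the highest by far. HLA-C rose by a log2FC of 1.34 ± 0.36 (adjusted p = 0.0417). The HLA genes and IFITM3 have close copies, so reads that could match several of them were dropped in counting and their levels are uncertain. Without single libraries the interferon list kept 3 to 9 DEGs and the MHC list 1 to 4. The interferon list held 3 without the 6 h replicates 3 or 4, the MHC list 1 without the 6 h replicate 3, and without the 72 h replicate 2 they held 6 and 3.

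Some immediate-early genes and feedback regulators of ERK signalling rose. These genes are switched on within minutes by growth factors or by stress, and the DUSP phosphatases among them remove the activating phosphates from MAP kinases. Of 31 tested members 7 were DEGs, all higher (22.6%), with a median log2FC of 0.52 for the list and 10 members lower without passing the test. The 7 were the AP-1 subunits FOS, FOSB, JUNB, JUND and ATF3 and the phosphatases DUSP1 and DUSP6.

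FOSB was at 79.6, 55.4 and 57.1 CPM at 6 h and at 600, 681 and 413 CPM at 72 h. The lowest 72 h library was more than 5-fold above the highest at 6 h, and the log2FC was 3.14 ± 0.44 (adjusted p = 2.81e-05). DUSP1 was close in its 3 libraries at 6 h, at 13.9, 15.4 and 13.2 CPM at 6 h and 114, 86.8 and 127 CPM at 72 h (log2FC 2.95 ± 0.50, adjusted p = 0.000617). FOS varied more, with 141, 43.3 and 85.9 CPM at 6 h and 575, 298 and 596 CPM at 72 h, and its groups still did not overlap (log2FC 2.45 ± 0.64, adjusted p = 0.0342). ATF3, a stress-induced member of the family, rose from 95.1 ± 15.4 to 483 ± 80.8 CPM (SD, n = 3, log2FC 2.35 ± 0.45, adjusted p = 0.00215). The list held 3 DEGs without the 6 h replicates 3 or 4 or the 72 h replicates 1 or 3, 4 without the 6 h replicate 1 and 5 without the 72 h replicate 2.

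EGFR, the receptor of EGF (chr7:55019021-55211628), more than doubled its transcript in the absence of added ligand. It stood at 1717, 1555 and 1478 CPM at 6 h and at 3638, 3938 and 4725 CPM at 72 h. The groups lay far apart relative to their spread, at 1583 ± 122 against 4100 ± 561 CPM (SD, n = 3), and the log2FC was 1.37 ± 0.19 (adjusted p = 2.01e-05). IGF1R, the receptor of insulin-like growth factors, was at 85.7, 92.0 and 97.1 CPM at 6 h and at 170, 166 and 171 CPM at 72 h (log2FC 0.88 ± 0.18, adjusted p = 0.00456). These were the 2 DEGs among 14 tested receptors and ligands of the EGF receptor list (14.3%), whose median log2FC was 0.46. INSR, the insulin receptor and a member of the FOXO target list, rose as well, from 34.2, 17.4 and 29.6 CPM to 71.3, 42.0 and 68.1 CPM (log2FC 1.16 ± 0.30, adjusted p = 0.0309). TXNIP, which binds thioredoxin and limits glucose uptake, was the other DEG of the 26 tested FOXO targets (7.69%). It was at 425, 276 and 418 CPM at 6 h and at 1725, 1172 and 2616 CPM at 72 h (log2FC 2.30 ± 0.59, adjusted p = 0.0294). The FOXO list held 0 DEGs without the 6 h replicates 3 or 4 or the 72 h replicates 1 or 3, and 1 without the 6 h replicate 1.

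**Figure D2:**
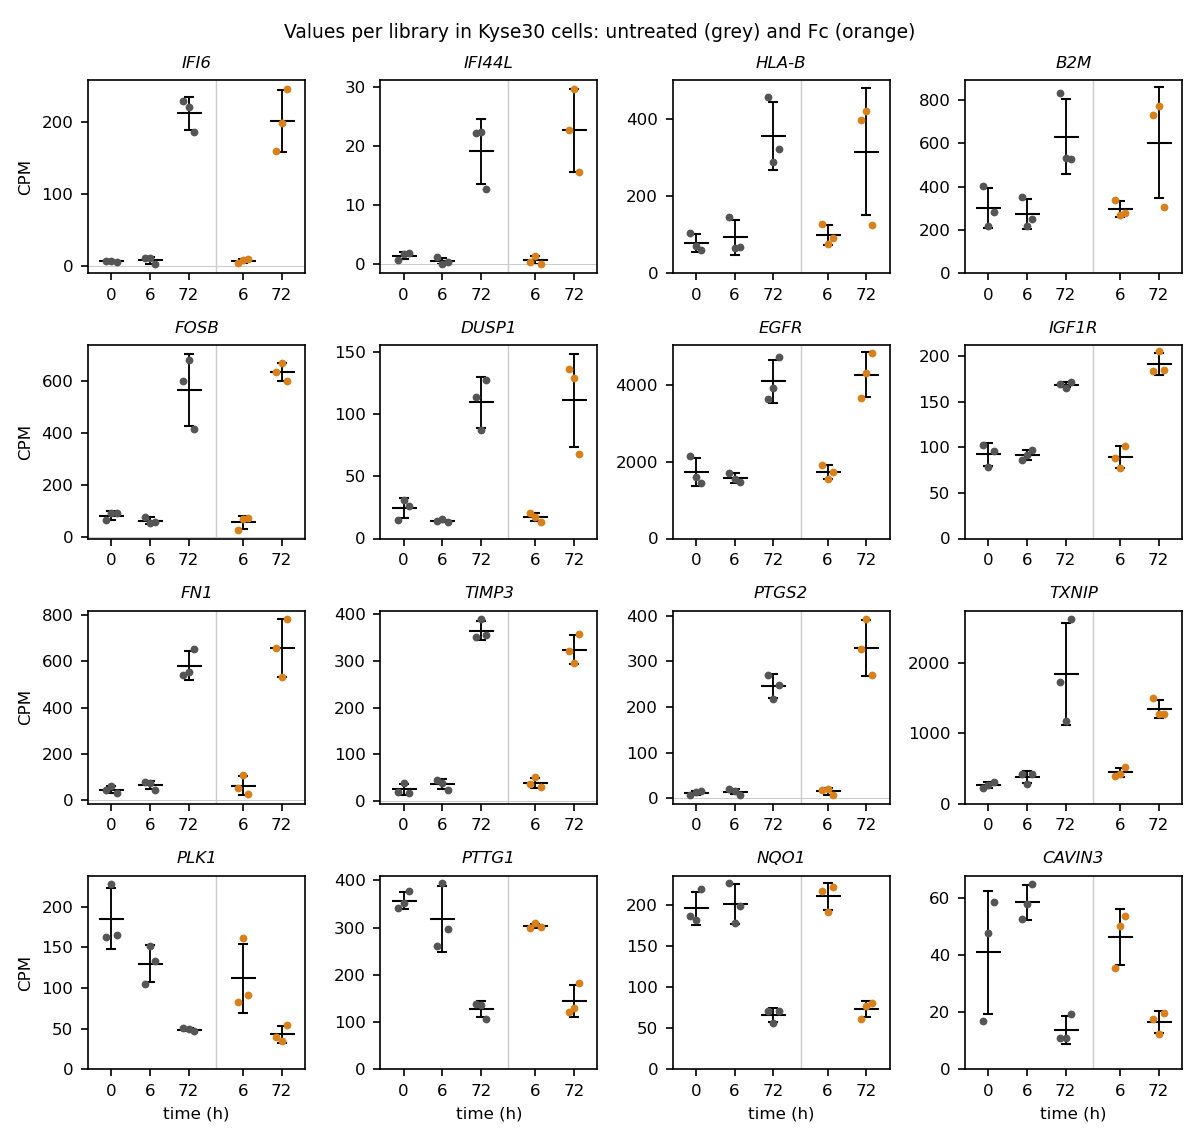
CPM per library at 0, 6 and 72 h in untreated cells (grey points) and at 6 and 72 h with Fc (orange points) for 16 named genes, with a bar and whiskers for mean and SD of 3 libraries. The 72 h points of EGFR sit between 3638 and 4725 CPM untreated, above all 6 h points, and those of PLK1 between 46.6 and 50.3 CPM, below all 6 h points.

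Of the 27 tested genes for epithelial-mesenchymal transition and matrix, 14 had a positive log2FC and only FN1 was a DEG. It encodes fibronectin, a matrix protein often used as a mesenchymal marker, and was at 74.7, 72.1 and 43.2 CPM at 6 h and at 541, 553 and 654 CPM at 72 h. No library overlapped, and the log2FC was 3.20 ± 0.63 (adjusted p = 0.0033). TIMP3, an inhibitor of metalloproteinases that is bound to the matrix, rose from 43.8, 39.2 and 23.6 CPM to 351, 389 and 355 CPM (log2FC 3.36 ± 0.55, adjusted p = 0.000407), the single DEG of 19 tested proteases and inhibitors. PTGS2, the inducible cyclooxygenase of prostaglandin synthesis, was at 20.3, 15.4 and 8.0 CPM at 6 h and at 270, 218 and 247 CPM at 72 h (log2FC 4.08 ± 0.55, adjusted p = 2.01e-05), sharing the smallest adjusted p of the comparison with EGFR and NQO1. FN1 was the single DEG of 27 tested genes for epithelial-mesenchymal transition and matrix (3.7%), a list whose median log2FC was 0.04. For the proteases and inhibitors the share was 5.26%, and for all genes tested 1.55%. VIM, the mesenchymal intermediate filament, was at 91.8, 20.2 and 35.2 CPM at 6 h and 44.2, 40.5 and 34.2 CPM at 72 h, overlapping (log2FC -0.30 ± 0.45, adjusted p = 0.846). CDH1, which encodes E-cadherin, likewise overlapped at 149 ± 33.1 and 197 ± 36.9 CPM (SD, n = 3, adjusted p = 0.768).

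Complement, a serum defence against microbes, is a list of components and of regulators that shield the cell from them, and it gave 2 DEGs among 10 tested genes, and 1 without any one of the 6 libraries. CD55, which dissolves complement enzymes on the cell surface, rose from 21.7, 32.6 and 30.9 CPM to 80.2, 82.2 and 105 CPM (log2FC 1.65 ± 0.28, adjusted p = 0.000741). The list's median log2FC was 1.18. ID1 and ID2, inhibitors of helix-loop-helix factors and targets of BMP signalling, were the 2 DEGs of 22 tested genes for TGF-beta and BMP signalling. ID2 was at 13.4, 12.5 and 30.3 CPM at 6 h and at 36.7, 148 and 96.1 CPM at 72 h, a wide spread that just cleared overlap (log2FC 2.32 ± 0.57, adjusted p = 0.0227), and ID1 rose from 116 ± 48.3 to 339 ± 71.8 CPM (SD, n = 3, log2FC 1.54 ± 0.41, adjusted p = 0.0382). This list held 0 DEGs without the 6 h replicates 1 or 3 or the 72 h replicates 2 or 3, and 1 without the 72 h replicate 1.

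The 12 DEGs of highest log2FC with a mean of at least 5 CPM included SLC2A3, SLC16A12, SLC1A6 and VIT. SLC2A3, the glucose transporter GLUT3, was at 1.04, 0.36 and 0.421 CPM at 6 h and at 25.1, 58.6 and 27.4 CPM at 72 h, so that its 6 h counts lay near the smallest readable amount (log2FC 5.95 ± 0.99, adjusted p = 0.000455). It was the single DEG of 23 tested glycolysis genes, whose median log2FC was -0.22. SLC16A12, a monocarboxylate transporter, rose from 1.88 ± 0.43 to 32.0 ± 12.8 CPM (SD, n = 3), SLC1A6, a glutamate transporter, from 3.05 ± 1.68 to 32.7 ± 14.9 CPM, and VIT, which encodes the matrix protein vitrin, from 3.38 ± 1.89 to 41.9 ± 18.0 CPM. Their log2FC values were 4.06, 3.41 and 3.61 (adjusted p = 0.0062, 0.00133 and 0.00427). GAA, the lysosomal enzyme that breaks down glycogen, was the single DEG of 34 tested lysosome and autophagy genes, at 18.6, 19.1 and 30.3 CPM at 6 h and 45.2, 50.0 and 50.9 CPM at 72 h (log2FC 1.10 ± 0.24, adjusted p = 0.00953), and that list held 0 without the 6 h replicates 1 or 3. ASAP1, an Arf GTPase activator in the YAP/TAZ target list, was the single DEG among 22 and had the smallest rise of all genes that passed (log2FC 0.69 ± 0.16, adjusted p = 0.0149). The YAP/TAZ list held 0 DEGs without the 6 h replicate 4 or the 72 h replicates 2 or 3. Single DEGs made up 4.35%, 2.94% and 4.55% of the tested glycolysis, lysosome and YAP/TAZ genes, beside 1.55% of all genes tested.

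Mitosis genes fell, and no DNA replication gene passed the test. All 55 members of the mitosis list had a negative log2FC, with a median of -0.885, and 9 of them were DEGs (16.4%): CCNB1, CDC20, PLK1, AURKA, CENPE, KIF2C, KIF4A, PTTG1 and CDCA8. They include the cyclin and kinases that drive entry into mitosis, the activator of the anaphase-promoting complex, securin, and motors that move chromosomes. The 48 genes of the DNA replication list held 0 DEGs in edgeR and 0 in DESeq2. In edgeR 2 of the 48 had an unadjusted p under 0.05, against 13.2% of all genes tested. The list had a median log2FC of -0.12 and values from -1.06 to 0.60.

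PLK1, the polo-like kinase of spindle assembly (chr16:23677656-23690367), was at 106, 152 and 133 CPM at 6 h and at 50.3, 49.0 and 46.6 CPM at 72 h. The 72 h libraries lay close together and below every 6 h library, with a log2FC of -1.42 ± 0.32 (adjusted p = 0.0115). PTTG1, the securin that holds back the separation of sister chromatids, stood at 261, 395 and 296 CPM at 6 h and at 138, 136 and 107 CPM at 72 h (log2FC -1.32 ± 0.24, adjusted p = 0.00133). KIF4A, a chromosome-bound kinesin, fell from 89.1, 133 and 87.0 CPM to 35.6, 54.2 and 30.3 CPM (log2FC -1.37 ± 0.32, adjusted p = 0.0147). CENPE, the kinetochore motor, fell from 74.5 ± 18.2 to 28.7 ± 5.45 CPM (SD, n = 3, log2FC -1.38 ± 0.35, adjusted p = 0.0275). MKI67, the widely used proliferation marker, did not pass although its libraries did not overlap, at 252, 288 and 194 CPM at 6 h and 101, 180 and 82.8 CPM at 72 h (log2FC -1.02 ± 0.40, adjusted p = 0.221). In the replication list, MCM7, a subunit of the replicative helicase, was at 221 ± 40.8 and 228 ± 46.5 CPM, and RRM1, the large subunit of ribonucleotide reductase, at 245 ± 54.7 and 187 ± 28.5 CPM (SD, n = 3, adjusted p = 0.965 and 0.529). Of the mitosis list, 2 genes were DEGs without the 6 h replicate 3 or the 72 h replicate 3, 5 without the 72 h replicates 1 or 2, and 6 and 8 without the 6 h replicates 1 and 4, while DESeq2 called 17, the compared libraries alone 22 and untreated and Fc libraries together 37. Bulk libraries cannot tell fewer dividing cells from less RNA per dividing cell.

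A sequence known to time expression to mitosis, the cell cycle homology region, was searched as TTTGAA in the same stretch. It occurred before 4 of the 8 mitosis DEGs with an entry (50%), before 25 of 47 tested members (53.2%), and before 8.53% of all tested genes. It is shown in capitals for PLK1 (chr16:23678739-23678888) and KIF4A (chrX:70289954-70290103), both on the plus strand.
PLK1: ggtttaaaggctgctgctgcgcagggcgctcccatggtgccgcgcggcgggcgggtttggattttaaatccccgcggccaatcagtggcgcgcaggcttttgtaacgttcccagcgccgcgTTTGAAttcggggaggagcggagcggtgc
KIF4A: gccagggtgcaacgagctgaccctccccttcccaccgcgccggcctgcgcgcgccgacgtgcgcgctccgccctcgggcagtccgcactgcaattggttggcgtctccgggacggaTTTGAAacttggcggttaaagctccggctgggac
AURKA had no entry.

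Cell cycle regulators outside mitosis gave no call by list. None of 15 tested D cyclins, MYC and CDK inhibitors was a DEG in edgeR or in DESeq2. In edgeR 1 of the 15 had an unadjusted p under 0.05, against 13.2% of all genes tested. CCND1, the D cyclin that growth factors induce, was at 409, 367 and 341 CPM at 6 h and 471, 386 and 310 CPM at 72 h (adjusted p = 0.94). MYC ranged from 4.32 to 31.8 CPM at 6 h and from 14.1 to 47.3 CPM at 72 h, and CDKN1A, the p21 inhibitor, from 113 to 194 and from 75.6 to 135 CPM, each overlapping (adjusted p = 0.696 and 0.683). Of 24 tested p53 targets, RRM2B, a p53-induced subunit of ribonucleotide reductase, was the single DEG (4.17%, beside 1.55% of all genes tested). It fell from 35.6, 22.8 and 17.3 CPM to 5.12, 5.92 and 12.5 CPM (log2FC -1.70 ± 0.42, adjusted p = 0.0227), and the list held 0 DEGs without the 6 h replicates 1 or 3 or the 72 h replicates 1 or 2. CDKN3, a phosphatase that acts on cyclin-dependent kinases, and ARHGAP11A, a GTPase activator of dividing cells, belonged to no list and were among the 12 genes of lowest log2FC. They fell from 44.6 ± 6.67 to 13.6 ± 1.01 CPM and from 45.5 ± 7.63 to 12.7 ± 3.04 CPM (SD, n = 3, log2FC -1.72 and -1.83, adjusted p = 0.00129 and 0.00814).

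Among metabolic genes, NQO1 fell with the same adjusted p as the rise of EGFR. This quinone reductase is a standard target of NRF2, the factor that answers oxidative stress, and it was at 227, 178 and 199 CPM at 6 h and at 70.8, 56.7 and 70.6 CPM at 72 h (log2FC -1.61 ± 0.21, adjusted p = 2.01e-05). GCLM, which helps make glutathione, fell from 66.9, 74.4 and 40.8 CPM to 21.3, 31.1 and 33.5 CPM (log2FC -1.09 ± 0.27, adjusted p = 0.023). These were the 2 DEGs of 20 tested NRF2 targets, of which 16 had a negative log2FC, with a median of -0.58. Cholesterol synthesis also gave 2 DEGs among 25 genes, both lower: ACAT2 at 81.2, 138 and 58.6 CPM against 39.5, 45.8 and 34.2 CPM, and FDFT1 at 162, 166 and 170 CPM against 106, 104 and 70.8 CPM (log2FC -1.22 and -0.83, adjusted p = 0.0275 and 0.0288). ACAT2 makes the first intermediate of the pathway and FDFT1 makes squalene, and the list's median was -0.42. Of 50 ribosome biogenesis genes 44 had a negative log2FC with a median of -0.25, and NPM1, an abundant nucleolar chaperone, was the single DEG, at 2118 ± 110 against 1261 ± 98.0 CPM (SD, n = 3, log2FC -0.75 ± 0.16, adjusted p = 0.00697). The cholesterol list held 0 DEGs without the 6 h replicate 3 or any one of the 72 h replicates. It held 1 without the 6 h replicates 1 or 4. The NRF2 list held 1 without the 6 h replicates 1 or 3 or the 72 h replicates 1 or 2. DEGs made up 10%, 8% and 2% of the tested NRF2, cholesterol and ribosome biogenesis genes, beside 1.55% of all genes tested.

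The lowest log2FC values also belonged to genes in none of the lists. CAVIN3, a coat protein of caveolae, was at 52.5, 57.7 and 64.8 CPM at 6 h and at 10.9, 10.9 and 19.4 CPM at 72 h (log2FC -2.10 ± 0.41, adjusted p = 0.00321). CALB2, the calcium-binding protein calretinin, fell from 212, 148 and 144 CPM to 55.5, 27.5 and 35.6 CPM (log2FC -2.08 ± 0.53, adjusted p = 0.029). STMN3, a stathmin that destabilises microtubules, fell from 23.2 ± 4.84 to 5.72 ± 2.67 CPM, and PGM2, which interconverts sugar phosphates, from 25.6 ± 5.13 to 6.96 ± 2.74 CPM (SD, n = 3, adjusted p = 0.00697 and 0.00913). UPP1, the uridine phosphorylase, was at 49.8 ± 15.1 and 14.5 ± 0.57 CPM (SD, n = 3, adjusted p = 0.0385). Both non-coding genes in this group, LHX1-DT and BCYRN1, fell as well, by log2FC values of -2.31 and -1.99 (adjusted p = 0.0273 and 0.00129), as did the gene listed as ENSG00000254093 (log2FC -1.70, adjusted p = 0.0289). BCYRN1 is a short repeat-derived RNA with close copies and LHX1-DT is annotated as antisense, so with the strand setting of the counting not given in the sources used here their levels are uncertain.

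Squamous differentiation and adhesion genes gave a single DEG. Among tested genes of the upper layers that was 2.7%, beside 1.55% of all genes tested. SPRR1B, a small proline-rich protein of the cornified envelope, was the single DEG of 37 tested genes of the upper layers, falling from 44.0, 28.5 and 30.9 CPM to 8.56, 10.5 and 9.82 CPM (log2FC -1.84 ± 0.44, adjusted p = 0.0196), and the list held 0 without the 6 h replicate 1 or any one of the 72 h replicates. In the lists of stress keratins, simple keratins, the basal layer with hemidesmosomes, and desmosomes, 0 of 4, 5, 20 and 16 tested genes were DEGs, against 0, 0, 1 and 0 in DESeq2. At an unadjusted p under 0.05 in edgeR there were 3, 2, 1 and 1, beside 13.2% of all genes tested. KRT19 was at 2490 ± 771 and 3072 ± 450 CPM and ITGB4, the hemidesmosomal integrin, at 1149 ± 255 and 969 ± 139 CPM (SD, n = 3, adjusted p = 0.666 and 0.795). EPCAM, the surface protein whose ectodomain was applied to other groups of the study, was at 285, 195 and 201 CPM at 6 h and 211, 157 and 178 CPM at 72 h, overlapping (log2FC -0.32 ± 0.23, adjusted p = 0.61).

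In the lists for hypoxia, fatty acid synthesis, the unfolded protein response, cytokines, metallothioneins and mitochondrially encoded genes, 0 of 20, 14, 15, 16, 6 and 13 tested genes were DEGs in edgeR. An unadjusted p under 0.05 was found for 3, 4, 3, 1, 0 and 0 of them, beside 13.2% of all genes tested. DESeq2 called 2 genes in the fatty acid list and 0 in the others. FASN, the fatty acid synthase, did not overlap at 1000 ± 94.7 and 555 ± 142 CPM (SD, n = 3) and missed the threshold with an adjusted p of 0.204. In the ATF4 target list ATF3, given above, was the single DEG of 30 (3.33%, beside 1.55% of all genes tested). HSPA5, the chaperone BiP, was at 1009 ± 122 and 952 ± 128 CPM (SD, n = 3, adjusted p = 0.911), and NFKBIA, the inhibitor of NF-κB, at 129 ± 5.23 and 206 ± 29.5 CPM without overlap (SD, n = 3, adjusted p = 0.341). A p that misses the threshold does not show that these genes were the same at both times.

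The first 6 h showed 0 DEGs. Untreated cells at 6 h against 0 h had no gene past the threshold in edgeR (0% of 15350) or in DESeq2, and 355 genes at an unadjusted p under 0.05. This comparison shares its 6 h libraries with the one above, so only values are set side by side. EGFR was at 2141, 1600 and 1437 CPM at 0 h, within reach of its 6 h levels, and NQO1 at 186, 181 and 219 CPM. PLK1 stood at 163, 228 and 165 CPM at 0 h, above its 6 h libraries of 106 to 152 CPM. UPP1 was at 118, 110 and 62.4 CPM at 0 h and 39.3 to 67.0 CPM at 6 h. IFI6 was at 7.91, 7.34 and 6.55 CPM at 0 h, FN1 at 41.5, 59.2 and 28.9 CPM and PTGS2 at 7.19, 13.4 and 16 CPM, each close to its 6 h values.

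Libraries from cells given Fc covered the same interval without EGF and share no library with the untreated ones, though they carry the same replicate numbers. With Fc, 346 genes were DEGs at 72 h against 6 h (2.25%), 191 higher (1.24%) and 155 lower (1.01%). All 238 untreated DEGs had the same sign with Fc, against 67.6% of all genes tested, and 121 were DEGs in both, which is 50.8% of the untreated and 35% of the Fc DEGs. Across genes, Pearson's r between both log2FC values was 0.947 for the untreated DEGs and 0.305 for all genes tested. This is a description over genes, which share libraries within each treatment and are not independent. The DEGs were chosen for a large untreated change in either direction. That choice by itself raises r, so both values of r cannot be compared directly. The difference of both changes passed the test for 0 genes in edgeR and 0 in DESeq2, with 484 at an unadjusted p under 0.05.

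**Figure D3:**
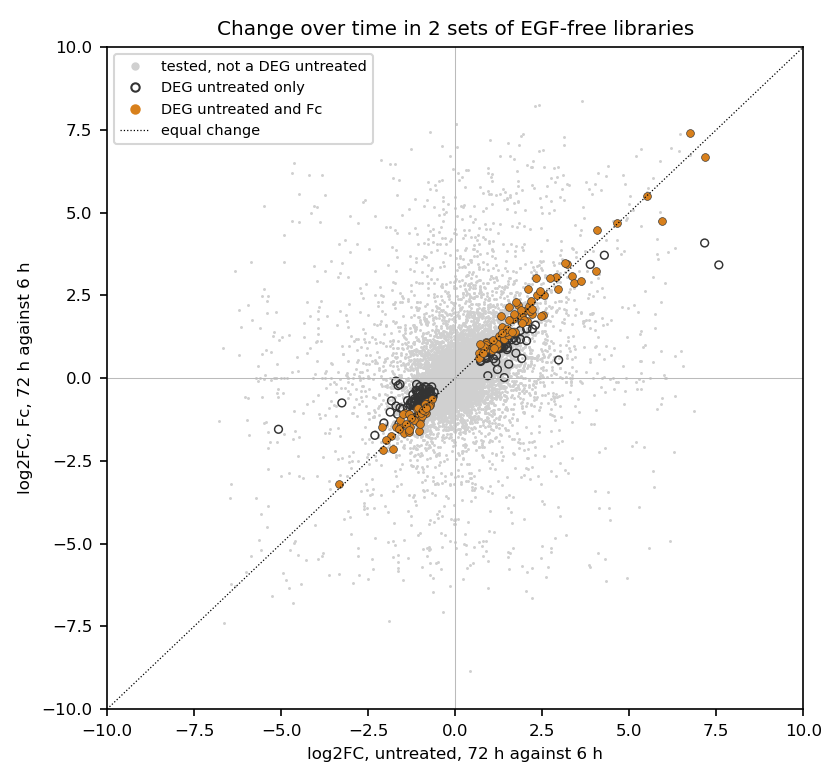
Log2FC at 72 h against 6 h in untreated cells (x) and in cells with Fc (y) for all genes tested, with the untreated DEGs ringed and those that were DEGs in both filled in orange. All 238 ringed or filled points lie in the lower left or upper right corner.

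Some named genes had values with Fc close to those without, and others changed less or did not pass. EGFR was at 1912, 1549 and 1748 CPM at 6 h and 3657, 4328 and 4839 CPM at 72 h (log2FC 1.30 ± 0.19, adjusted p = 3.96e-05), and NQO1 changed by a log2FC of -1.53 ± 0.21 (adjusted p = 2.43e-05). IFI6 rose from 4.66, 8.47 and 10.2 CPM to 160, 199 and 247 CPM, and FN1 from 52.3, 106 and 25.1 CPM to 658, 532 and 783 CPM (log2FC 4.70 and 3.43, adjusted p = 0.000561 and 0.0018). The interferon list held 9 DEGs with a median log2FC of 1.37, the MHC list 5 with 0.87, the AP-1 and ERK feedback list 5 with 0.74, and the mitosis list 10 with -0.78. B2M showed 1 low library at 72 h, with 728, 772 and 308 CPM against 337, 270 and 278 CPM at 6 h (log2FC 1.03 ± 0.28, adjusted p = 0.0394). TXNIP, INSR and KIF4A did not pass with Fc (log2FC 1.6, 0.49 and -0.68, adjusted p = 0.135, 0.422 and 0.257), so the FOXO list held 0 DEGs there. ENSG00000254093 was nearly level (log2FC -0.09, adjusted p = 0.944). ARHGAP11A, RRM2B, CENPE, PGM2 and GCLM fell less than in untreated cells and did not pass (log2FC -0.69, -0.845, -0.87, -1.03 and -0.45). OAS2, BST2, HLA-C, STMN3 and ACAT2 did not pass either (edgeR adjusted p = 0.0516, 0.0636, 0.153, 0.0727 and 0.0642). PTGS2 and ID2 rose more than in untreated cells (log2FC 4.47 and 3.01).

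EGF high over the same interval asks whether the untreated changes differ when ligand is present. Cells with 9 nM EGF had 1892 DEGs at 72 h against 6 h (12.3%), 933 higher (6.08%) and 959 lower (6.25%). The difference between the change with EGF and the change without it passed the test for 155 genes (1.01%), 76 with a higher (0.495%) and 79 with a lower change (0.515%) under EGF. Among the 238 untreated DEGs it passed for 33. Of these, 19 rose less or fell with EGF, 1 rose more, and 13 fell less or rose. The 238 were chosen for their change in the untreated libraries that also enter the difference. That choice by itself leans the difference toward weaker changes with EGF. The median log2FC of the untreated DEGs that rose was 1.61 untreated, 1.33 with Fc and 0.72 with EGF. For those that fell it was -1.07, -0.79 and -0.46. The other 205 did not pass, which does not show that EGF left them alike.

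EGFR showed no change that passed the test with EGF. It was at 2251, 2041, 2313 and 1988 CPM at 6 h and at 1732, 2347 and 1931 CPM at 72 h (log2FC -0.10 ± 0.17, adjusted p = 0.762), and its change was lower than in untreated cells by 1.47 ± 0.25 on the log2 scale (adjusted p = 0.00106). FN1 stood at 72.4, 76.0, 80.8 and 20.1 CPM at 6 h and at 25.9, 13.9 and 22.6 CPM at 72 h, a change that did not pass (adjusted p = 0.0716), and differed from the untreated rise (difference of log2FC -4.77 ± 0.86, adjusted p = 0.00166). TIMP3 remained at 34.4 to 78.6 CPM at 72 h (difference -2.74 ± 0.71, adjusted p = 0.0438), and SLC2A3 at 0.178 to 0.856 CPM (difference -6.97 ± 1.45, adjusted p = 0.00635). For each of these genes the 72 h libraries with EGF lay below all untreated 72 h libraries.

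SPRR1B moved in opposite directions, falling without EGF and rising with it from 78.9, 76.2, 73.3 and 120 CPM to 668, 446 and 495 CPM (difference 4.46 ± 0.59, adjusted p = 3.02e-05). CAVIN3 and CALB2, which fell in untreated cells, had log2FC values of 0.52 and 0.66 with EGF that did not pass (differences 2.62 ± 0.54 and 2.73 ± 0.70, adjusted p = 0.00635 and 0.0372). TXNIP was the gene that rose in both and more with EGF, from 115, 50.2, 37.8 and 24.3 CPM to 732, 4006 and 2777 CPM (difference 3.19 ± 0.78, adjusted p = 0.029). Its 6 h level with EGF lay below all untreated 6 h libraries, while its 72 h libraries overlapped. The mitosis genes PLK1, PTTG1 and KIF4A had changes close to the untreated ones, with log2FC of -1.64, -1.41 and -1.45 under EGF against -1.42, -1.32 and -1.37 without, and HLA-B rose by 2.21 against 1.93 (differences not passing, adjusted p = 0.88, 0.945, 0.963 and 0.878). Mean levels of the 3 mitosis genes were lower with EGF at both times, which was not tested. At 6 and 72 h PLK1 averaged 73.0 and 23.2 CPM with EGF against 129.9 and 48.7 untreated. PTTG1 averaged 191.9 and 72.2 against 317.5 and 127 CPM, and KIF4A 65.0 and 23.55 against 103 and 40.0 CPM. IFI6 rose by 2.44 with EGF against 4.65 without, and the difference of -2.20 did not pass (adjusted p = 0.297).

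**Figure D4:**
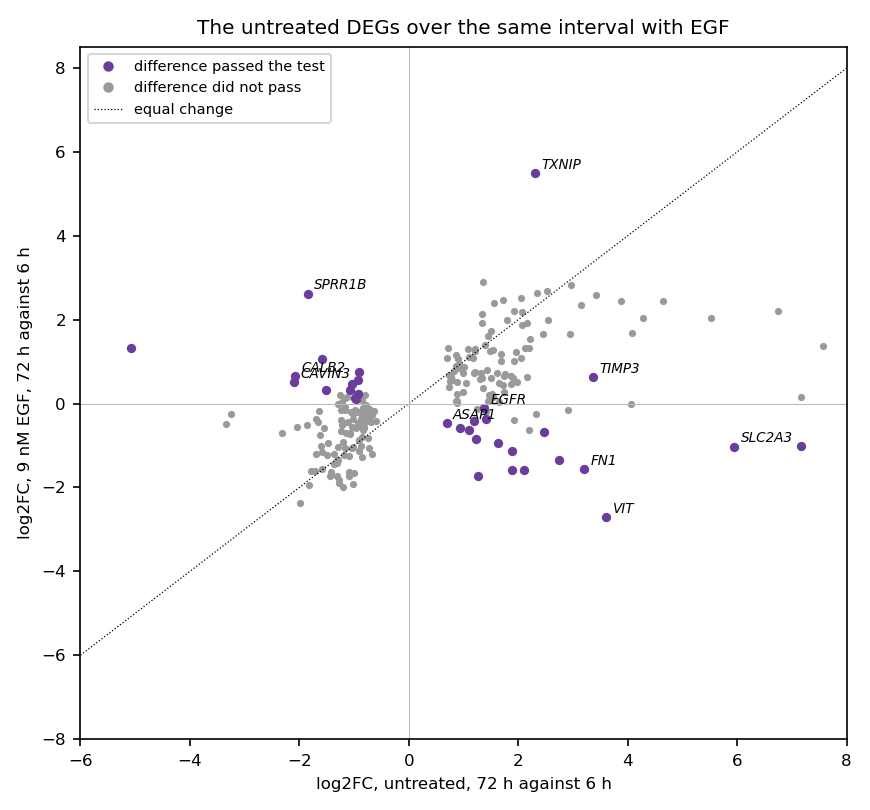
Log2FC at 72 h against 6 h in untreated cells (x) and with 9 nM EGF (y) for the 238 untreated DEGs, with purple for the 33 whose changes differed in the test and names for those described. EGFR, FN1, TIMP3, SLC2A3 and VIT rose along x, and along y all 5 lie below the line of equal change, 4 of them below 0 and TIMP3 at 0.62.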

How the data were processed

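Libraries were made with a 3′ mRNA kit, and the authors deposited unnormalized counts of reads per gene as whole numbers. The submitters' processing notes name STAR, HTSeq and GRCh38 (hg38). Versions, annotation, strand setting and molecular identifiers are not given in the sources used here. Reads given to no gene, ambiguous or not unique were left out. Symbols came from GENCODE release 29 (57754 of 58395 genes).

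Groups came from line, agent and hour as labelled. The 43 Kyse30 libraries (13 groups, 30 residual degrees of freedom) shared 1 fit of edgeR's quasi-likelihood test (edgeR 4.0.16, R 4.3.3, TMM, filterByExpr by group with minimum count 10 and total 15), with Benjamini-Hochberg adjustment over 15350 genes. DEG thresholds follow the study, which used DESeq2. SE is log2FC divided by the square root of F. The method was tested on simulated data. Replicate numbers are 1, 3 and 4 at 6 h and 1, 2 and 3 at 72 h. No 2 libraries were identical.

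Members, gene lists and tests were chosen with earlier results of these data known. Named genes were the 12 highest and 12 lowest log2FC among non-overlapping DEGs with a mean of at least 5 CPM, up to 4 DEGs per list, the 2 most abundant members where a list had fewer than 2, and EGFR, EPCAM, ITGB4, CDH1, VIM, CDKN1A, MYC, CCND1 and MKI67. KRT14 and the DEGs listed by name without values lie outside this rule and were named after their values were seen. Alternatives were DESeq2 1.42.0, RLE factors, other filters, the compared libraries alone, a replicate block, Fc and untreated together, and leave-one-out. Low-level ratios have exact 95% intervals. FaDu libraries were not used here. Some genes that the rule names are not reported here.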

Additional observations from a re-analysis of the deposited data

Results flagged for a closer look

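The change from 6 to 72 h differed between cells with 9 nM EGF and untreated cells for 155 genes by the test of the difference itself (edgeR, adjusted p at most 0.05 and a difference beyond 0.5). Of the genes named here, 13 were among them. The change with EGF was lower for SLC2A3 (difference of log2FC -6.97), VIT (-6.32), FN1 (-4.77), TIMP3 (-2.74), CAV1 (-1.91), EGFR (-1.47), CDK6 (-1.25) and ASAP1 (-1.15). It was higher for ITGB4 (2.27), CAVIN3 (2.62), CALB2 (2.73), TXNIP (3.19) and SPRR1B (4.46). CAV1, CDK6 and ITGB4 were not DEGs in untreated cells. ITGB4 was at 912, 1116 and 1419 CPM untreated at 6 h and 1105, 827 and 974 CPM at 72 h, and with EGF went from 671, 888, 837 and 1462 CPM to 3123, 4357 and 4272 CPM. CAV1, the caveolin of the caveolae that CAVIN3 coats, went from 1048, 1303, 1338 and 1576 CPM to 473, 270 and 414 CPM with EGF.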

How the results depend on the processing

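The comparison of untreated 72 h against 6 h gave 238 DEGs, and 407 with no filter on low counts, 477 with DESeq2 (all 238 among them), 433 with the compared libraries alone, 1385 with untreated and Fc libraries together, 72 to 155 without single libraries, and 67 with replicates 1 and 3 only, an alternative chosen after seeing the data. With a replicate block there were 410 (23 mitosis genes against 9). Only the numbers 1 and 3 occur at both times, and they were not taken as pairs (correlation of deviations 0.093 for number 1 and -0.027 for number 3). Over all Kyse30 groups the mean correlation of deviations was 0.0812 for libraries of the same number and -0.0277 for other numbers. In untreated cells, and also with Fc, number 4 occurs only at 6 h and number 2 only at 72 h. With EGF high, number 2 occurs only at 6 h. An effect of the number therefore cannot be fully told apart from time. The shared signs of untreated and Fc cells do not separate them either. Fc 72 h against 6 h gave 346 DEGs, and 555 with no filter, 522 with the replicate block, 630 with DESeq2, 81 with the compared libraries alone, 174 with replicates 1 and 3 only and 92 (without the 6 h Fc replicate 1) to 270 (without the 72 h Fc replicate 1) without single libraries. The difference between Fc and untreated cells gave 1 gene and 6 h against 0 h 5 genes with no filter, where both otherwise gave 0. The difference between EGF high and untreated cells gave 401 genes with no filter, 310 with DESeq2, and 86 (without the 6 h untreated replicate 4) to 262 (without the 72 h EGF high replicate 1) without single libraries, and 92 and 96 without the 6 h EGF high replicate 2 and the 72 h untreated replicate 2. The cause of these changes was not tested, except that leave-one-out fits hold fewer libraries. RLE factors moved the median log2FC of all genes from 0.02 to 0.04. Of 1301 values of 93 named genes under alternatives, 0 reversed, 150 lost and 16 gained their call, and 17 of 51 named DEGs passed under every one, among them BCYRN1, CD55, CDKN3, DUSP1, EGFR, FOSB, IFI6, IGF1R, NQO1, PTGS2, PTTG1, SLC16A12, SLC1A6, SLC2A3, TIMP3 and VIT. Depth limits statements on genes near 3 counts per library at 6 h, such as IFI27 and IFI44L.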

Other observations

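Of the 238 untreated DEGs, 185 belonged to none of the 31 lists. Families picked by symbol after their values were seen, and so given without a test, hold some of those that fell. The proteasome, which degrades tagged proteins, had 6 DEGs among 36 tested subunits, all lower (PSMA4, PSMA7, PSMB6, PSMB7, PSMC1 and PSMD2), and 34 of 36 had a negative log2FC with a median of -0.52. PSMA4 stood at 239 CPM at 6 h and 122 CPM at 72 h on average (log2FC -0.97, adjusted p = 0.0118). The 2 subunits with a positive log2FC were PSMB8 and PSMB9, which interferon is known to induce, at means of 0.754 and 5.48 CPM and of 5.6 and 15.1 CPM, and neither passed (adjusted p = 0.257 and 0.516). Mitochondrial ribosome proteins gave 8 DEGs among 77, all lower, with 69 negative values and a median of -0.40, and MRPS10 had the lowest log2FC of the 8 (log2FC -1.16, adjusted p = 0.00171). Subunits of respiratory complex I and ATP synthase gave 4 DEGs among 54, all lower (ATP5MC1, ATP5MG, NDUFB8 and NDUFB9), with a median of -0.45. DEGs made up 16.7%, 10.4% and 7.41% of the 3 families, against 1.55% of all genes tested. A negative log2FC was found for 7438 of the 15350 genes tested. With Fc the same families had 4, 5 and 3 DEGs, all lower, with medians of -0.57, -0.47 and -0.45. Without single libraries they held 0 to 6, 1 to 4 and 0 to 3 DEGs in untreated cells. The proteasome count was 0 without the 6 h replicate 3 or the 72 h replicates 2 or 3, the mitochondrial ribosome count was 1 without the 72 h replicate 2, and the count for complex I and ATP synthase was 0 without the 6 h replicate 3 or the 72 h replicates 1 or 2.

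The genes of the interferons themselves were looked up after the rise of their targets had been seen. Of 22 interferon genes in the files, 19 had no count in any of the 6 untreated libraries at 6 and 72 h, IFNB1 and IFNG among them. The highest total over the 6 libraries was 32 counts, for IFNL2, which has a near-identical copy. IFNL2 had 0, 1 and 0 counts at 6 h and 6, 22 and 3 at 72 h. IFNL1 had 0, 12 and 3 at 6 h and 0, 0 and 7 at 72 h, and IFNE 0, 2 and 11 and 0, 6 and 3. Whether these low counts bear on the rise of the targets was not tested.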
